A study of Saccharomyces cerevisiae with 13 samples.

Results

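The small-subunit cytosolic ribosomal protein genes of *S. cerevisiae* were taken as the rows whose gene name begins with RPS and a digit. The rule gave 56 of the 7126 gene rows, which are 8 single-copy genes and 24 pairs of an A and a B copy, or 32 protein families. All 56 names were the same in every library, all 56 were found in the reference annotation, and all 56 passed the filter on low counts in every comparison. Read counts per gene came from QuantSeq 3′ mRNA-Seq, which primes on the poly(A) tail and reads the 3′ end of each mRNA. The 13 libraries were made from BY4741, a haploid laboratory strain with deletions in auxotrophic marker genes. Untreated WT and WT treated with 50 mM caffeine for 1 h carried no plasmid, with 2 libraries in each group. Caffeine replicate 2 is titled 50 mM but carries a treatment tag of 51 mM, and both caffeine libraries were kept in 1 group. Of the plasmid groups, with 3 libraries each, 1 was WT with the empty vector pRS426ADH and 1 was the *yap1* mutant with the same empty vector. The third was the Yap1 overexpression strain, WT with pRS426ADH-YAP1. In these cells *YAP1*, which encodes a transcription factor of the oxidative stress response, was driven by the *ADH1* promoter on a high-copy plasmid, and the strain list of the study gives the protein with a TAP tag. The same list gives the mutant allele as *yap1::KANMX*. No caffeine label is given for the plasmid libraries, and the medium of each library is not specified. Nothing says whether replicates came from separate cultures, so p-values measure only the spread between these libraries.

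The 40S ribosomal subunit binds mRNA and matches tRNA anticodons to codons, and it consists of the 18S rRNA and its ribosomal proteins. Most yeast ribosomal protein genes survive as a pair of copies from an ancient duplication of the genome, and many carry an intron. Their transcription depends on Rap1, Fhl1 and Ifh1, responds to the TORC1 kinase, and takes a large part of the transcription of growing cells. Caffeine is known to inhibit TORC1 in yeast.

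The coding sequences of most pairs differ in few bases, and the counts included reads that align to more than 1 place. How far the coding ends of a pair differ is shown by the last 75 coding bases of 3 pairs. They are written 5′ to 3′ with bases that differ between the copies in capitals. *RPS6* has nearly identical ends, *RPS22* showed the largest difference between its copies with caffeine, and *RPS0* fell most with its copies summed. Coordinates and sequences are those of the R64 (sacCer3) assembly in RefSeq.
RPS6A (chrXVI:377291-377365, minus strand): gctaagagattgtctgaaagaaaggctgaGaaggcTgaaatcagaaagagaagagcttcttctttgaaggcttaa
RPS6B (chrII:591712-591786, minus strand): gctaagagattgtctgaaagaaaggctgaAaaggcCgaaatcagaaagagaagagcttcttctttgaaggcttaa
RPS22A (chrX:74910-74984, minus strand): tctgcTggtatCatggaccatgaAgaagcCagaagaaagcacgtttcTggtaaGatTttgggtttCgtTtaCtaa
RPS22B (chrXII:857243-857317, plus strand): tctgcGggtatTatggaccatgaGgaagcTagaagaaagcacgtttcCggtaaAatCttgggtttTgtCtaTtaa
RPS0A (chrVII:921714-921788, plus strand): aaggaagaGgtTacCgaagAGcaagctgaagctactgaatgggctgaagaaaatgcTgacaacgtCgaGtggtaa
RPS0B (chrXII:243275-243349, plus strand): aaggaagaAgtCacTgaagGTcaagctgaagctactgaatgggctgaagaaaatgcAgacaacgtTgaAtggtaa
The ends of *RPS6A* and *RPS6B* differed in 2 bases, against 10 in *RPS22* and 8 in *RPS0*. Over the whole coding sequence, 63.1% of the 75-base windows of *RPS6A* occurred exactly in *RPS6B*. This share was 29.1% in *RPS4* and 26.0% in *RPS24*. *RPS27* differed most among the pairs of equal length, with 28 mismatches in the last 150 bases, and *RPS22* had 16. Values of single copies of *RPS6*, *RPS4* and *RPS24* are therefore uncertain as far as their reads lie in coding sequence. Bases after the stop codon, which reads from the 3′ end can also cover, were not compared. The counts of all pairs were also summed. *RPS22B* is the only member that overlaps another annotated gene, *SNR44*, a snoRNA gene in its intron, whose row had 23 to 146 counts.

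Total counts were 15508616 to 25609092 per library, of which 6409605 to 14838853 lay outside the 15 rRNA rows. Of the members, 43 had at least 1000 counts in all 13 libraries, while *RPS20* (63 to 308 counts) and *RPS28B* (176 to 522 counts) stayed under 1000 in all of them. *YAP1* followed the labels, with 2 to 22 counts in the mutant, 635 to 722 in the vector control and 23285 to 25251 in the overexpression strain. *LYS2* had 312 to 897 counts and *MET17* 0 in the 13 libraries, although the strain is described with a *lys2* deletion and not with a *MET17* deletion. All 5 markers of mating type a were present (*STE2*, the alpha-factor receptor, had 1240 to 6470 counts), and of the 4 markers of mating type alpha, *STE3* had 2 to 41 counts, *MF(ALPHA)1* 4 to 57, *MF(ALPHA)2* 34 to 186 and *SAG1* 142 to 288. Replicate 2 of WT with empty vector stood apart. It was the highest or the lowest of the 9 plasmid libraries in 47 of the 56 members, and the ratio of copy A to copy B lay outside the range of the other 8 libraries in 21 of the 24 pairs. Relative to each gene's median over the 9 libraries, its members ran from -6.13 (*RPS19A*) to 1.04 (*RPS20*) on the log2 scale with an SD of 1.33, against SDs of 0.10 to 0.28 in the other libraries. It is the only plasmid library whose rows carry the gene names used in the libraries without plasmid, and the part of this in its values was not tested. Fold changes against WT with empty vector are given below with and without it where it moves them most.

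Caffeine lowered nearly the whole group. In CPM, counts scaled to library size with TMM normalization, the 56 genes together held 111881 and 121432 CPM in the untreated libraries and 23029 and 20008 CPM in the caffeine libraries. The log2 difference was -2.44 with a pooled SD of 0.12, a 5.43-fold lower level. As a share of the counts outside the rRNA rows, the members took 11.4% and 13.2% without caffeine and 3.44% and 3.10% with it. In the edgeR quasi-likelihood test, 55 of the 56 members fell and none rose with an adjusted p under 0.05. Among all 6759 genes tested, 23.6% were called lower and 22.2% higher. In the same 55 members, both caffeine libraries lay below both untreated libraries, as they did in 37.6% of all genes. The median log2 fold change was -2.66, a 6.33-fold lower level, against -0.003 over all genes tested. Scaling by library size alone moved the median to -2.29, with all genes at 0.37, and left 53 members called, while a fit of all 13 libraries called 50. When single libraries were left out, 52 to 54 members were called. CPM and shares give levels relative to the other counts of a library, and not amounts of RNA per cell.

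**Figure D1:**
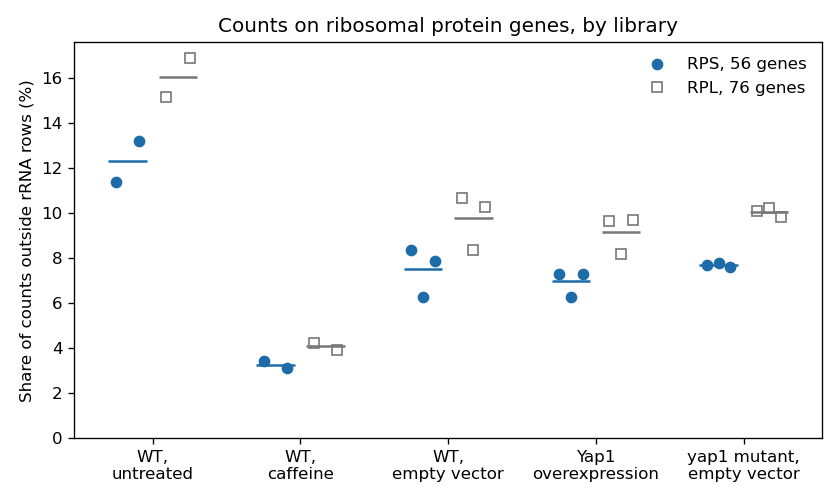
Share of the counts outside the rRNA rows (%, vertical axis) that fell on the 56 RPS genes (filled circles) and the 76 RPL genes (open squares) in each library of the 5 groups, with horizontal lines at the group means. RPS genes took 11.4% and 13.2% in untreated WT, 3.44% and 3.10% in caffeine-treated WT, and 6.28% to 8.34% in the plasmid libraries.

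Members along the path of the mRNA were among those that fell. Rps2 and Rps3 line the channel through which mRNA enters. *RPS2* had 4123 and 4723 CPM in the untreated libraries and 531 and 288 CPM in the caffeine libraries (log2 fold change -3.43, standard error 0.36, adjusted p = 0.00115 in edgeR). *RPS3* went from 2490 and 3022 CPM to 307 and 237 CPM (log2 fold change -3.34, standard error 0.27). In both genes the untreated libraries lay at several times the level of the caffeine libraries, with no overlap. *RPS15*, whose protein reaches toward the decoding site and is needed for export of the precursor subunit from the nucleus, went from 3768 and 3178 CPM to 898 and 723 CPM (log2 fold change -2.10, standard error 0.24). Rps23 lies at the decoding centre, where it affects the accuracy of translation. Its 2 copies fell unequally, with log2 fold changes of -3.08 in *RPS23B* and -1.95 in *RPS23A*. *RPS13*, which encodes an 18S rRNA-binding protein of the body, had 3435 and 3801 CPM untreated and 685 and 606 CPM with caffeine (log2 fold change -2.49, standard error 0.23).

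The largest falls were in both copies of *RPS0* and in *RPS18A*, *RPS22A* and *RPS7A*. *RPS0B* had 1232 and 1273 CPM in the untreated libraries against 69.1 and 34.8 CPM with caffeine (log2 fold change -4.59, standard error 0.41, adjusted p = 0.000909 in edgeR). Its copy *RPS0A* had 2445 and 2230 CPM against 166 and 166 CPM (log2 fold change -3.82, standard error 0.24). Rps0 sits on the solvent side of the subunit and is needed for the last steps of 18S rRNA maturation. *RPS18A*, whose protein in the head contacts the large subunit, had 1828 and 2058 CPM against 146 and 102 CPM (log2 fold change -3.97, standard error 0.30). *RPS22A*, which encodes an 18S rRNA-binding protein of the body, went from 1711 and 1925 CPM to 152 and 108 CPM (log2 fold change -3.81, standard error 0.29). *RPS7A*, whose protein on the solvent side is ubiquitinated by Not4, went from 1343 and 1517 CPM to 117 and 96.2 CPM (log2 fold change -3.74, standard error 0.26). These 5 were the members with the lowest fold changes. In all 5 the distance between the caffeine libraries was small beside that to the untreated libraries. Rps6, a target of TORC1 signalling, was lower in both copies, with log2 fold changes of -3.10 in *RPS6A* and -3.20 in *RPS6B*.

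The smallest changes were also spread over the subunit. *RPS20*, whose protein lies in the head beside Rps3, had 5.31 and 8.25 CPM untreated and 4.99 and 5.49 CPM with caffeine, so that the groups overlapped. It was the only member not called (log2 fold change -0.37, standard error 0.35, adjusted p = 0.427 in edgeR), and its value was 0.04 without untreated replicate 2. Its libraries held only 76, 133, 93 and 102 counts, whereas the other single-copy members had 2490 to 11053 CPM in the untreated libraries. The reason for so low a row was not tested, and its fold change rests on few reads. *RPS22B* had 904 and 974 CPM untreated and 570 and 525 CPM with caffeine (log2 fold change -0.78, standard error 0.22, adjusted p = 0.0314). The caffeine libraries lay below the untreated ones, but the call was lost with any 1 of the 4 libraries left out (adjusted p 0.0588 to 0.129) and with scaling by library size alone (0.226). Rps27 is a zinc-binding protein. *RPS27A* went from 83.5 and 85.1 CPM to 39.8 and 46.6 CPM (log2 fold change -0.96, standard error 0.21) and *RPS27B* from 932 and 963 CPM to 371 and 471 CPM (log2 fold change -1.17, standard error 0.24). Both calls were lost without untreated replicate 1 (adjusted p 0.0606 and 0.0542), without untreated replicate 2 (0.0656 and 0.0629) and in a fit of all 13 libraries (0.405 and 0.309). *RPS27A* was also not called without caffeine replicate 1 (0.0607) or with scaling by library size alone (0.0746). *RPS26A*, whose protein contacts the mRNA upstream of the start codon at the exit channel, had 4143 and 4473 CPM untreated and 1655 and 1719 CPM with caffeine (log2 fold change -1.35, standard error 0.21). The fit of all 13 libraries also lost *RPS26B*, *RPS19A* and *RPS19B*, at log2 fold changes of -1.73, -2.50 and -2.10. That fit takes in replicate 2 of WT with empty vector, where these had 8.69, 1.76 and 8.20 CPM, *RPS27A* 3.26 CPM and *RPS27B* 22.2 CPM. The part of that library in the lost calls was not tested.

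Rps12 and Rps31 belong to the beak of the subunit, and Rps31 is made as a fusion with ubiquitin. *RPS12* had 7253 and 9000 CPM in the untreated libraries and 3188 and 2806 CPM in the caffeine libraries (log2 fold change -1.44, standard error 0.23). *RPS31* went from 9865 and 11053 CPM to 2243 and 1922 CPM (log2 fold change -2.33, standard error 0.22). All 4 values of each gene were separated by treatment. The single-copy genes thus spanned -3.43 to -0.37, or to -1.44 without the low-count *RPS20*, with a median of -2.41 over 8 genes. The 48 members of pairs spanned -4.59 to -0.78, with a median of -2.73.

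**Figure D2:**
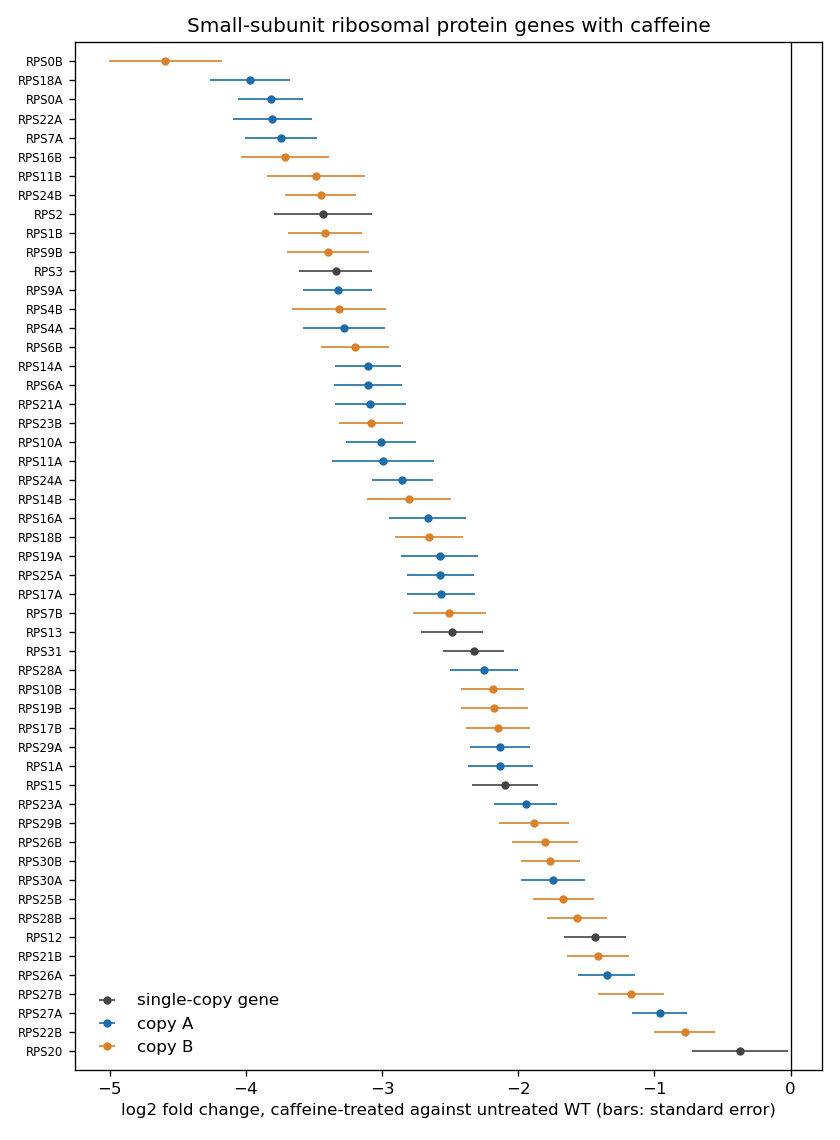
Log2 fold change of the RPS genes reported singly in caffeine-treated against untreated WT (horizontal axis, 2 libraries per group), ordered by size. Points are edgeR estimates, bars are standard errors, and colours mark single-copy genes, A copies and B copies. Values run from -4.59 (*RPS0B*) to -0.37 (*RPS20*), and all lie below 0.

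With each pair replaced by its sum, 31 of the 32 families fell in edgeR, where 23.3% of all rows of that table were called lower. The low-count *RPS20* was again the exception. The fold changes of the families ran from -4.05 in *RPS0* (standard error 0.24) to -0.37 in *RPS20*. *RPS18* (-3.58), *RPS7* (-3.43), *RPS2* (-3.43) and *RPS9* (-3.39) followed *RPS0*, whereas *RPS27* (-1.15), *RPS26* (-1.41), *RPS12* (-1.44) and *RPS21* (-1.72) were closest to *RPS20*. From *RPS18* down to *RPS22* (-2.03), neighbours in this order differed by less than their standard errors, while the families at its ends were several standard errors apart. The sums of the near-identical copies do not depend on which copy a read was assigned to, although a read counted in both copies would be repeated in them. These sums were at -3.15 in *RPS6* (standard error 0.24), -3.30 in *RPS4* (standard error 0.31) and -2.96 in *RPS24* (standard error 0.22).

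In 7 of 24 pairs the log2 fold changes of the copies with caffeine differed by more than 1. The median difference over the pairs was 0.55. The share of counts on copy A did not overlap between untreated and caffeine-treated libraries in 21 of 24 pairs. With only 2 libraries per group, such a separation alone is weak evidence of a shift. Separated pairs were not counted among other genes, and some shifts without overlap were small. Copy A of *RPS6* went from 46.6% and 46.8% to 48.1% and 48.6%, and copy A of *RPS27* from 8.12% and 8.22% to 9.01% and 9.70%. In *RPS22*, copy A held 65.4% and 66.4% of the counts of the pair without caffeine and 17.1% and 21.0% with it, and the fold changes of the copies were 3.03 apart on the log2 scale. The minor copy of the pair thus became the major one. In *RPS21*, which encodes a protein that lies beside Rps0, copy A had 26.2% and 29.2% without and 9.61% and 12.1% with caffeine, and the log2 fold changes were -3.09 in *RPS21A* and -1.42 in *RPS21B*. In *RPS18*, copy A had 79.1% and 79.3% without and 54.5% and 65.7% with caffeine. In *RPS1*, a platform protein near the mRNA exit, copy A had 25.7% and 25.8% without and 43.0% and 49.2% with caffeine. In *RPS7*, these shares of copy A were 80.5% and 83.8% without and 65.3% and 67.5% with caffeine. The 3 pairs with the smallest differences, *RPS30*, *RPS4* and *RPS9*, differed by 0.02, 0.04 and 0.07 in log2 fold change, and their shares overlapped between the groups. Of the 5 pairs with the largest differences, none shared an exact 75-base window, and of the 3 with the smallest, *RPS30* shared none, *RPS9* 0.385% and *RPS4* 29.1%. The smallest p of an exact 2-sided permutation test with 2 against 2 libraries is 0.333, so no single pair could pass 0.05, and the smallest adjusted p over the 96 relations computed was 0.9. In the plasmid comparisons, where 3 against 3 libraries allow an exact p of 0.1 at the lowest, the median differences between the fitted log2 fold changes of the copies were 0.20 for the *yap1* mutant and 0.24 for the Yap1 overexpression strain, both against WT with empty vector, and 0.05 between the mutant and the overexpression strain. Without replicate 2 of WT with empty vector the first 2 medians were 0.05 and 0.06. No fitted difference was over 1, whereas the mean log2 ratio of A to B in *RPS26* was lower by 1.19 in the mutant than in WT with empty vector (pooled SD 1.21, exact permutation p = 0.3), with overlapping groups.

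**Figure D3:**
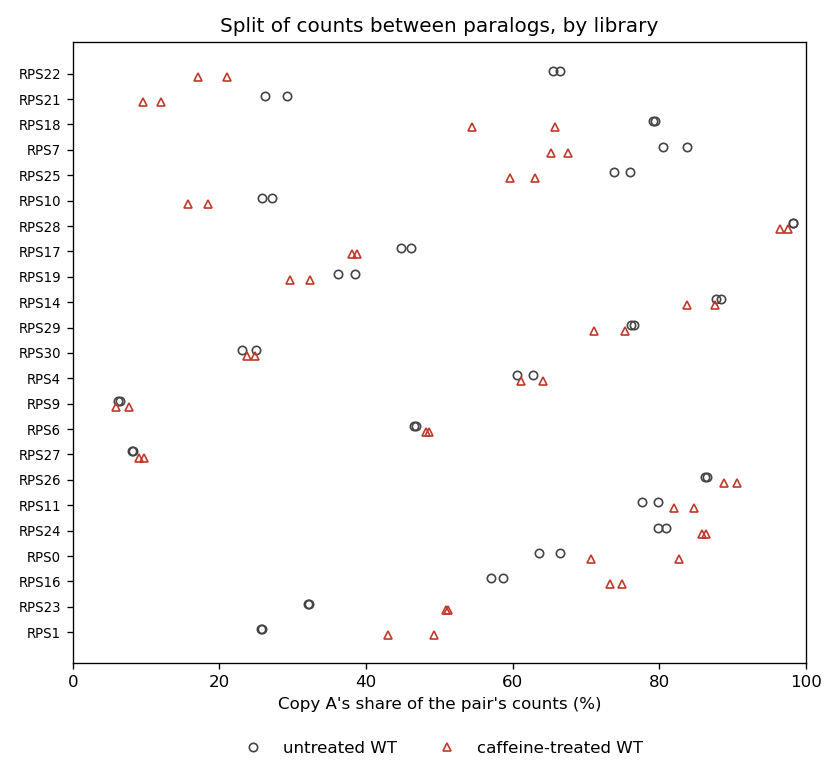
Share of the counts of each pair reported singly that fell on copy A (%, horizontal axis) in the 2 untreated WT libraries (circles) and the 2 caffeine-treated WT libraries (triangles). Pairs are ordered by the difference between the log2 fold changes of A and B, from *RPS22*, where copy A fell more, to *RPS1*, where copy B fell more.

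Longer members had lower fold changes with caffeine. Across the 56 genes, which share the same 4 libraries, Spearman's correlation of coding length with log2 fold change was -0.63, and between -0.65 and -0.61 in fits that left out 1 library. Across the 32 families it was -0.78. Members under 300 coding bases had a median of -1.75 (10 genes), those of 300 to 450 bases -2.57 (25 genes), those of 450 to 600 bases -3.16 (8 genes) and those of 600 to 900 bases -3.28 (13 genes). Among the 76 genes of the large subunit the correlation was -0.47, among 31 mitochondrial small-subunit genes -0.24 and among 5882 genes with a coding length 0.04. The median was -2.93 over the 36 members with an intron in the coding region and -2.19 over the 20 without one. Their median coding lengths were 435 and 411 bases. These relations describe genes, which are not independent replicates.

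**Figure D4:**
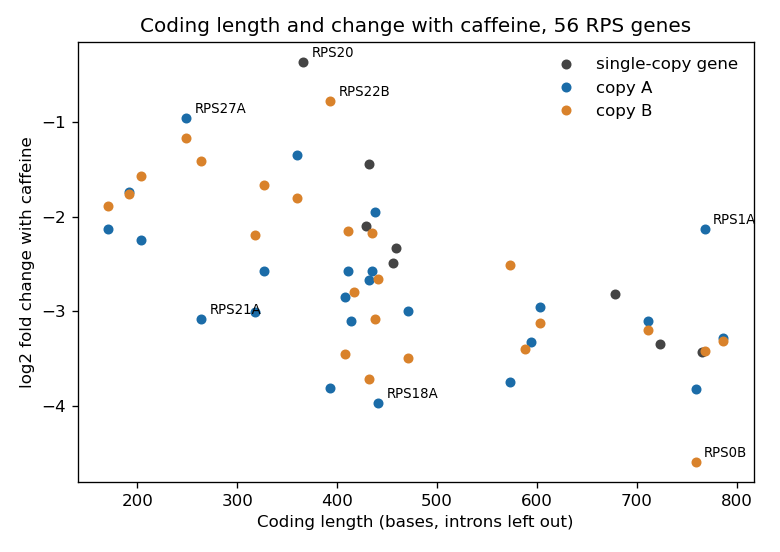
Coding length in bases without introns (horizontal axis) against the log2 fold change of caffeine-treated against untreated WT (vertical axis) for the 56 RPS genes, with single-copy genes, A copies and B copies in different colours. The genes under 300 bases have a median of -1.75 and those of 600 to 900 bases a median of -3.28.

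The 500 bases before each start codon were searched on both strands for 4 motifs. A Rap1-type match, ACCCNNACA, was present in 18 of the 56 members (32.1%), in 46.1% of the genes of the large subunit and in 5.47% of all protein-coding genes. Within 250 bases it was found in 4 members (7.14%) against 2.50% of all genes. With caffeine, the median was -2.93 over the 18 members with a match and -2.54 over the other 38. GACGCA, a motif linked to Fhl1 and Ifh1, was found in 10.7% of members and 10.9% of all genes, GAAAATTTT, an element bound by Stb3, in 1.79% and 6.53%, and GATGAG, the core of the PAC element, in 21.4% and 28.2%. The motifs do not overlap each other in the stretches shown. The 4 members with a Rap1-type match and the lowest fold changes have these stretches before their start codons, written 5′ to 3′ toward the gene, with the matches in capitals.
RPS0A (chrVII:920077-920115, plus strand): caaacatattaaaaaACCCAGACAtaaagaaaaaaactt
RPS7A (chrXV:505294-505344, plus strand): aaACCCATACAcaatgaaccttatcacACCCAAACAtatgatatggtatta
RPS16B (chrIV:308128-308229, minus strand): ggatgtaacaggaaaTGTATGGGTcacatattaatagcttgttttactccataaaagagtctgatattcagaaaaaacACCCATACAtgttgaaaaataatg
RPS11B (chrII:332512-332566, plus strand): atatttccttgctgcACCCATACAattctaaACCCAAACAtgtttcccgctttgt
In *RPS16B* the first capital run is a match on the opposite strand, and in *RPS7A* and *RPS11B* both matches lie close together. A match is a string of letters and no evidence of binding, and the lack of a match to this string is no evidence that binding is absent. *RPS22A*, *RPS18A* and *RPS0B*, also among the 5 members that fell most, had no match in this window.

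Other parts of the cytosolic ribosome were also lower. Of 76 large-subunit genes, 71 fell with caffeine and none rose, with a median log2 fold change of -2.66. Of 5 stalk genes, whose proteins recruit translation factors to the large subunit, 5 fell (median -1.81). *ASC1*, the 40S protein that scaffolds signalling and is not matched by the naming rule, fell by 2.06, and *STM1*, which clamps idle ribosomes, fell by 2.42 on the log2 scale. Of 5 genes for chaperones and assembly partners of single small-subunit proteins, 4 fell (median -1.89). They were *TSR2* for Rps26 (-2.75), *TSR4* for Rps2 (-1.90), *FAP7* for Rps14 (-1.89) and *LTV1* (-1.79), which acts with Rps3 and Rps20. *YAR1*, whose protein escorts Rps3, was at -0.56 (adjusted p = 0.0731 in edgeR). Of 30 factors of 40S assembly, 27 fell and 1 rose (median -2.21). *UTP20* of the early precursor fell by 3.51, and the kinase gene *HRR25*, which also has roles outside ribosome assembly, rose by 1.79 on the log2 scale. The mitochondrial small subunit had 4 of 31 genes lower and 3 higher with a median of 0.06.

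Of 12 genes for regulators of ribosomal protein and ribosome assembly genes, 3 rose and 2 fell with caffeine (median -0.24), shares near the 22.2% and 23.6% of all genes. *SFP1*, an activator, rose by 1.57 (adjusted p = 0.0100 in edgeR), *STB3*, a repressor, by 1.50 (0.0148) and *CRF1*, a corepressor, by 0.90 (0.0377) on the log2 scale. *TOD6*, a repressor that binds the PAC element, fell by 1.65 and *FHL1* by 1.07. *RAP1* was at -0.81 (adjusted p = 0.0708) and *IFH1* at -0.39 (0.400). None of the 12 was called in the plasmid comparisons, nor was any gene of the other lists apart from 2 genes of the mitochondrial small subunit, which were higher in the *yap1* mutant than in the Yap1 overexpression strain (median of the 31 genes 0.62).

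No member passed the test in the comparisons among the plasmid libraries. Between the *yap1* mutant and WT with empty vector, 0 of 56 members were called in edgeR, and 0.0737% of all 6781 genes tested were. No member had an unadjusted p under 0.05, and DESeq2 and voom with quality weights also called 0. The median log2 fold change was 0.15, from -0.72 (*RPS20*) to 1.12 (*RPS19A*). Without replicate 2 of WT with empty vector, the median was -0.07, the range was -0.47 to 0.55, and 0 members were called, while 1.47% of all genes were. *RPS19A*, whose protein sits in the head, had 116, 1.76 and 145 CPM in WT with empty vector and 277, 184 and 110 CPM in the *yap1* mutant (log2 fold change 1.12, standard error 1.08). The value of 1.76 CPM, from 40 counts, is that of replicate 2, and the other libraries of both groups overlapped. *RPS27B* and *RPS19B* came next, at 0.85 and 0.82 with standard errors of 0.79 and 0.95. Without replicate 2 of WT with empty vector, *RPS19A* was at 0.55, *RPS27B* at 0.33 and *RPS19B* at 0.27. *RPS22B* (-0.35, or -0.11 without that library) and *RPS23B* (-0.20, or -0.21) were the lowest beside *RPS20*.

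The Yap1 overexpression strain gave 0 of 56 members called against WT with empty vector, with 0.472% of all genes called. In this comparison 2 members had an unadjusted p under 0.05, and DESeq2 and voom again called 0. The median log2 fold change was -0.009, from -0.99 (*RPS20*) to 0.71 (*RPS19A*). *RPS27B* (0.51) and *RPS27A* (0.49) were the next highest, and *RPS23B* (-0.47) and *RPS2* (-0.32) the next lowest. Without replicate 2 of WT with empty vector, *RPS19A* was at 0.15, *RPS27B* at 0.001, *RPS27A* at -0.03, *RPS23B* at -0.47 and *RPS2* at -0.46. *RPS27A* had 43.5, 3.26 and 53.9 CPM in WT with empty vector and 47.1, 42.0 and 51.9 CPM in the overexpression strain. Only replicate 2 of the vector group stood apart in it. *RPS20* had 9.65, 13.6 and 8.02 CPM in WT with empty vector against 6.22, 2.85 and 6.62 CPM in the overexpression strain and 4.88, 4.83 and 9.25 CPM in the *yap1* mutant. Without replicate 2 of WT with empty vector the median was -0.24, 54 of 56 members were below 0, and 0 were called (lowest adjusted p 0.114), with 1.64% of all genes called. The 3 overexpression libraries then lay below both remaining vector libraries in 34 members, as did 16.7% of all genes. The library left out had been found to stand apart by its values in these same members, so this count is a description only. The median was 0.18 without replicate 1 of WT with empty vector (42 members above 0) and 0.10 without replicate 3 (37 above 0). Both comparisons share the same vector libraries, so their values are not independent.

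The *yap1* mutant and the Yap1 overexpression strain were also compared directly. The fold changes set only these groups against each other, but the vector libraries share in the estimate of the spread behind standard errors and p-values. In a fit of only the 6 libraries compared, 0 members were called as well, with a lowest adjusted p of 0.152 in edgeR against 0.731 in the main fit. Of the 56 members, 0 were called, against 0.973% of all genes, no member had an unadjusted p under 0.05, and DESeq2 and voom called 0. The median log2 fold change of the mutant over the overexpression strain was 0.16, and 55 of 56 members were above 0. The median without overexpression replicate 2 was 0.09, with 44 members above 0. With all libraries, 3609 of the 6781 genes tested were above 0. So were 75 of 76 large-subunit genes (median 0.18) and 31 of 31 genes of the mitochondrial small subunit (median 0.62). In 10 members the 3 mutant libraries lay above all overexpression libraries, as did 8.86% of all genes. *RPS26B* had 201, 150 and 103 CPM in the mutant and 110, 90.8 and 122 CPM in the overexpression strain (log2 fold change 0.49, standard error 0.78). These values overlapped. *RPS19A* (0.41) and *RPS18B* (0.40) were the next highest and *RPS22B* (-0.07), *RPS21A* (0.04) and *RPS25B* (0.06) the lowest. The summed level of the members was 32415, 34406 and 31168 CPM in the mutant and 30140, 25070 and 31452 CPM in the overexpression strain, a log2 difference of 0.18 with a pooled SD of 0.13. With pairs summed, 0 of 32 families were called in edgeR between the *yap1* mutant and WT with empty vector (0.074% of all rows), between the Yap1 overexpression strain and WT with empty vector (0.503%) and between mutant and overexpression strain (0.977%).

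**Figure D5:**
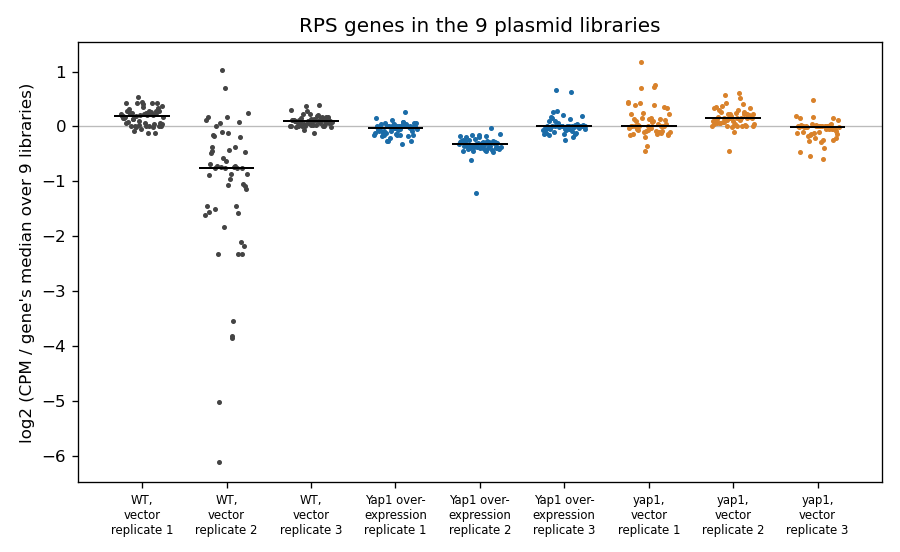
Level of each of the 56 RPS genes in the 9 plasmid libraries, as log2 of its CPM over its median of the 9 libraries (vertical axis), with 1 point per gene and a line at the median of the library. Replicate 2 of WT with empty vector has a median of -0.75 and members down to -6.13, and the medians of the other 8 libraries lie between -0.33 and 0.19.

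WT with empty vector and untreated WT without plasmid were only read side by side. The labels used here do not give the culture, medium or sequencing round of these libraries. Any such difference could not be told apart from the plasmid. RPS genes took 8.34%, 6.28% and 7.85% of the counts outside rRNA rows with the vector and 11.4% and 13.2% without plasmid. The Yap1 overexpression strain had 7.30%, 6.29% and 7.29% and the *yap1* mutant 7.69%, 7.80% and 7.59%. By this share, all 9 plasmid libraries lay between the untreated and the caffeine-treated libraries of WT without plasmid. As a share of all counts, rRNA rows included, replicates 1 and 2 of WT with empty vector (2.09% and 2.28%) and replicate 2 of the Yap1 overexpression strain (2.27%) lay below both caffeine libraries (2.50% and 2.40%). In these plasmid libraries the rRNA rows held 74.97%, 63.64% and 63.95% of all counts, against 27.35% and 22.66% in the caffeine libraries.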

How the data were processed

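Counts per gene of 13 QuantSeq libraries were used as the authors deposited them, as raw counts without normalization, 1 list per library. According to the study's methods and the submitters' processing notes, reads were aligned with Bowtie2 (build sacCer3) and counted with bedtools over unique and multiple alignments. Versions, annotation and strand setting are not given in the sources used here. Multiple alignments can move counts between near-identical copies, so pairs were also summed. One mouse table in the series was not used. Of 169 renamed rows, none of them a member, 69 were joined by position.

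Fits used edgeR 4.0.16 in R 4.3.3 (filterByExpr, TMM, robust quasi-likelihood test, Benjamini-Hochberg adjustment over all genes, threshold 0.05). The 4 libraries without plasmid and the 9 with plasmid were fitted apart. The standard error is the size of the log2 fold change over the square root of F. Copy ratios used a pseudocount of 0.5. Members, lists, the naming rule and alternatives were chosen with earlier results of these data known. A few members enter the counts and medians but are not reported singly here. Of the others, named were all single-copy genes, the 5 lowest and 5 highest members with caffeine, the 3 highest and 3 lowest of each plasmid comparison, and the 5 pairs most and 3 pairs least split by caffeine. A further few, chosen after their values were seen, are the copies of *RPS6* and *RPS23*, *RPS28B* and members that lost a call. The alternatives were DESeq2 1.42.0, voom with quality weights (limma 3.58.1), other scalings and filters, a replicate block, other sets of libraries in the fit and each library left out. Intervals cover the spread between libraries only.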

Additional observations from a re-analysis of the deposited data

How the results depend on the processing

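For 71 results, 1067 alternatives were computed, and no called value reversed. With other settings, 684 values kept their direction and side of the threshold, 4 were no longer called and 17 moved by more than the spread between replicates. With a library left out, 341 kept them, 9 were no longer called and 12 moved. The median of the members with caffeine was -2.66 in the main analysis, -2.59 in a fit of all 13 libraries (-2.48 with pairs summed), -2.29 with scaling by library size only (-2.18 with pairs summed) and -2.86 to -2.55 with each library left out (-2.66 to -2.42 with pairs summed). The summed level differed by -2.44 in CPM, by -2.06 as a share of all counts and by -1.91 as a share of the counts outside rRNA rows. With scaling by library size only, where all genes shifted by 0.36 and 0.45, the medians were 0.60 for the *yap1* mutant (0.56 with pairs summed) and 0.53 for the Yap1 overexpression strain (0.48 with pairs summed). The summed levels of these strains differed from WT with empty vector by 0.55 and 0.43 as shares of all counts. As shares of the counts outside rRNA rows they differed by 0.05 and -0.10. With each library left out, the medians of the plasmid comparisons ran from -0.07 to 0.33 for the mutant and from -0.24 to 0.18 for the overexpression strain, lowest without replicate 2 and highest without replicate 1 of WT with empty vector. The cause of these shifts was not tested. Replicate numbers of the plasmid libraries did not pair them (correlations of deviations -0.25 to 0.18). In the caffeine comparison the correlation was 0.41 for libraries of the same number and -0.41 for the others. With 2 libraries per group the deviations mirror each other, so this is a single value whose sign follows the numbering. It cannot be set beside those of the plasmid libraries. With a replicate block, 55 members were called with caffeine (median -2.67) and 0 in the plasmid comparisons (medians 0.20, 0.01 and 0.20). *RPS20* and *RPS28B* had under 1000 counts in every library.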
